A study of Mus musculus with 4 samples.

Results

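Neuronatin (Nnat) was followed as a gene and as isoforms in single cells of the embryonic mouse brain. It is 1 of the 27998 genes in the Illumina matrix and has 10 of the 31947 isoforms in the Nanopore matrices. The gene was chosen by a measure of these same Nanopore counts, namely that the mean share of the leading Nnat isoform within single cells lay above what the pooled shares give, so the shares in single cells are given below as a description without a test. Cells from cortex, hippocampus and subventricular zone of a C57BL/6 mouse at E18 were captured in droplets in a single emulsion (10x Genomics Chromium v2), where each captured molecule receives a cell barcode and a unique molecular identifier (UMI). The emulsion was split into an aliquot of 190 cells and an aliquot of 951 cells, and both aliquots were read on 2 platforms, by Illumina with counts per gene and by Nanopore with counts per isoform. No treatment or genotype was compared, and the comparisons are between the 2 platforms and between cell classes. Of 1141 barcodes, 1121 with at least 1400 genes in the Illumina counts were kept, 186 of 190 and 935 of 951.

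Nnat is an imprinted gene that is transcribed from the paternal allele and encodes a small proteolipid of the endoplasmic reticulum membrane. The protein resembles the small membrane regulators of the calcium pump of the sarcoplasmic and endoplasmic reticulum, and the gene is known for its high expression in the developing brain. Its main splice forms are called alpha, which keeps the middle exon, and beta, which skips it. Nnat (ENSMUSG00000067786.16) spans chr2:157560078-157562522 on the plus strand of GRCm38. It lies in an intron of the protein-coding Blcap transcripts Blcap-201, Blcap-202 and Blcap-205, which are transcribed from the opposite strand, and no Blcap exon overlaps it.

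All 10 Nnat isoforms of the Nanopore matrices matched the Gencode annotation with their version. Nnat-205 (beta, 2 exons, 54 codons without the stop) skips the middle exon, while Nnat-202 (alpha, 3 exons, 81 codons) includes it as an exon of 81 bases at chr2:157561213-157561293. Nnat-208 uses the same exon without its last 5 bases, and Nnat-210 keeps the first 27 bases of it. Nnat-201 and Nnat-207 carry another exon of 88 bases at chr2:157560448-157560535, which lies in the first intron of Nnat-202. The sequences that tell these isoforms apart are shown in the plus strand, 5′ to 3′, from the Gencode transcripts on GRCm38. In the middle exon the capitals mark the bases that Nnat-208 lacks. In each junction the 15 bases before it are in lower case and the 15 bases after it in capitals.
Middle exon of Nnat-202: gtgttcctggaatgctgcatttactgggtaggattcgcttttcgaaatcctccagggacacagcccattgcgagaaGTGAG
Exon of 88 bases in Nnat-201 and Nnat-207: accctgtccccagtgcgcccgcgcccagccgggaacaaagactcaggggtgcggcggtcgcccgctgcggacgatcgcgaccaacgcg
Nnat-205, exon 1 to 2: cgcgtgctgctgcagGTGTTCAGGTACTCC
Nnat-202, exon 1 to 2: cgcgtgctgctgcagGTGTTCCTGGAATGC
Nnat-202, exon 2 to 3: attgcgagaagtgagGTGTTCAGGTACTCC
Nnat-208, exon 2 to 3: agcccattgcgagaaGTGTTCAGGTACTCC
Nnat-210, exon 2 to 3: tgctgcatttactggGTGTTCAGGTACTCC
The middle exon and the last exon open with the same 6 bases, GTGTTC, so after exon 1 Nnat-202 and Nnat-205 differ only from the base that follows GTGTTC.

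**Figure D1:**
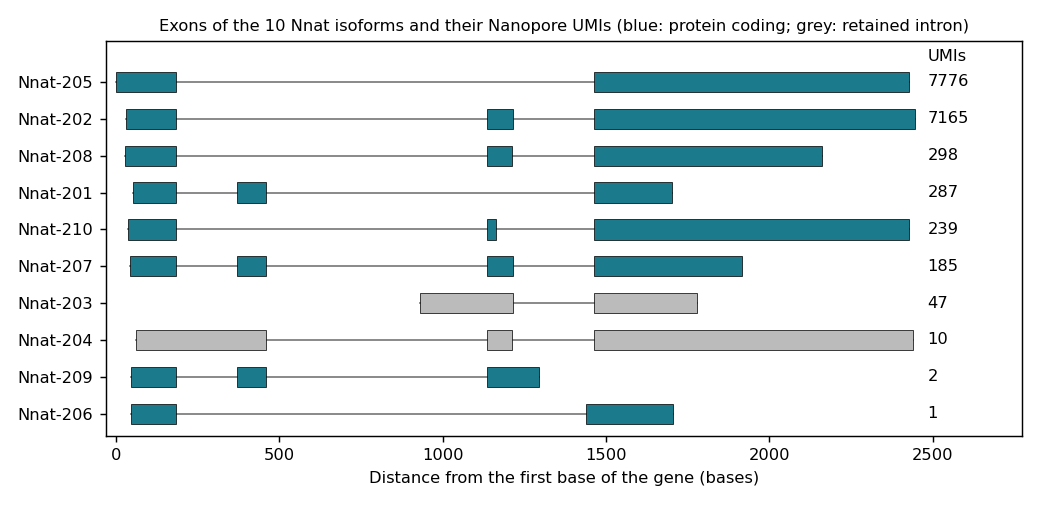
Exons of the 10 Nnat isoforms, drawn to scale by distance in bases from the first base of the gene, with the Nanopore UMIs summed over the 1121 cells at the right. Blue marks protein-coding isoforms and grey those annotated as retained introns; Nnat-205 (7776 UMIs) and Nnat-202 (7165 UMIs) differ in the middle exon and hold most of the UMIs.

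Both leading isoforms were abundant. Over all cells, Nnat-205 had 7776 of 16010 Nnat UMIs, or 48.6% (exact 95% binomial interval 47.8 to 49.3), and Nnat-202 had 7165 UMIs, or 44.8% (44.0 to 45.5). These intervals and those below cover counting error only. Nnat-205 was found in 992 and Nnat-202 in 991 of the 1121 cells. The other 8 isoforms were each below 2% of the Nnat UMIs. Among them Nnat-208 had 298 UMIs (1.86%), Nnat-201 287 UMIs (1.79%), Nnat-210 239 UMIs (1.49%) and Nnat-207 185 UMIs (1.16%). The retained-intron forms were rarer, with 47 UMIs for Nnat-203 and 10 UMIs for Nnat-204, while Nnat-209 had 2 UMIs and Nnat-206 had 1 UMI.

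The order of the leading isoforms differed between the aliquots. In the 190 cell aliquot Nnat-202 had 49.9% (48.0 to 51.9) and Nnat-205 43.5% (41.6 to 45.5) of 2547 Nnat UMIs. In the 951 cell aliquot Nnat-202 had 43.8% (42.9 to 44.6) and Nnat-205 49.5% (48.7 to 50.4) of 13463 Nnat UMIs. The 4 Cajal-Retzius-like cells of the 190 cell aliquot held 301 of its 2547 Nnat UMIs. Without the Cajal-Retzius-like cells the shares in the 190 cell aliquot were 46.5% (44.4 to 48.6) for Nnat-202 and 47.5% (45.4 to 49.6) for Nnat-205, so the intervals of the isoforms then overlapped. In the 951 cell aliquot they were 43.1% and 50.3% without these cells. The remaining difference between aliquots, 46.5% against 43.1% for Nnat-202, was larger than counting error (44.4 to 48.6 against 42.3 to 44.0). Nnat-202 had the higher share in the 190 cell aliquot in 7 of the 8 cell classes, with the radial glia-like cells as the exception. In every class but the Cajal-Retzius-like one, however, the intervals of the aliquots overlapped. The gap was small in mature GABAergic-like (38.8% and 38.5%) and mature glutamatergic-like neurons (42.1% and 41.7%). The part of the mix of classes in the difference between aliquots was not tested.

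As a gene, Nnat was detected in nearly every cell. The Illumina libraries held 3517 Nnat UMIs in the 190 cell aliquot and 16791 in the 951 cell aliquot, which is 1944 and 2024 CPM (UMIs of the gene per 1e6 UMIs of the library). A Nnat UMI was found in 98.4% of the cells of each aliquot, with a median of 14 and 12 and a highest value of 218 and 329 UMIs per cell. The Nanopore libraries held 2547 and 13463 Nnat UMIs, or 2564 and 2754 CPM. In the kept cells the total depth was 1809081 and 8295650 UMIs for Illumina, and for Nanopore 993220 and 4889148 UMIs, with medians per cell of 8048.5 and 7551.0 for Illumina and 4394.0 and 4487.0 for Nanopore. Between aliquots 13 barcodes were shared; for the 12 pairs kept in both, no cell was most like its namesake, and results without these cells are given where they differ. Scrublet called 3 and 4 doublets. Of the markers of cells outside the neural lineage, hemoglobin genes summed to 674 and 590.1 CPM and endothelial markers to 4.97 and 5.55 CPM, with Cldn5 and Flt1 at 0 in the 190 cell aliquot and Flt1 at 0 in the 951 cell aliquot. Oligodendrocyte lineage markers summed to 34.8 and 28.9 CPM, with Pdgfra at 0 in the 190 cell aliquot. Microglial markers summed to 1.66 CPM in the 190 cell aliquot, where C1qa and C1qb were at 0, and to 29.7 CPM in the 951 cell aliquot; their part in the results for Nnat was not tested beyond the 3 cells described below.

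The cells were clustered on the Illumina counts into 8 classes, and each class was named from its marker genes with the ending -like. Since Nnat was among the variable genes used for clustering, its level per class is a description, and values from clustering without Nnat are given in the closing section. Nnat was lowest in radial glia-like cells, the neural stem cells of the ventricular zone, with 460.4 CPM in 13 cells of the 190 cell aliquot and 382 CPM in 59 cells of the 951 cell aliquot. Then came mature glutamatergic-like neurons with 1281 CPM (43 cells) and 1113 CPM (236 cells). Intermediate progenitor-like cells, which divide to give glutamatergic neurons, had 1318 CPM (16 cells) and 1293 CPM (68 cells). Cycling radial glia-like cells had 1487 CPM (25 cells) and 1450.4 CPM (94 cells). This class was named from cell cycle genes alone, and dividing progenitors of other kinds were not told apart in it. After its own markers (mean log2 fold over other cells 3.23), the immature GABAergic list scored next (0.75), above the radial glia list. The ranges of the mature glutamatergic-like, intermediate progenitor-like and cycling radial glia-like classes did not overlap, but the highest value in mature glutamatergic-like and the lowest in intermediate progenitor-like cells, 1281 and 1293 CPM, lay next to each other. Medians over single cells did overlap between cycling radial glia-like (1189 and 1180 CPM) and intermediate progenitor-like cells (1282 and 1158 CPM).

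Higher levels were found in the other neurons. Immature glutamatergic-like neurons had 2054 CPM (37 cells) and 2308 CPM (196 cells), above their mature counterparts in both aliquots. Mature GABAergic-like neurons, whose cluster was led by Sst, Maf and Nxph1, had 3857 CPM (17 cells) and 4043 CPM (127 cells). Immature GABAergic-like neurons, whose cluster was led by Ebf1, Isl1 and Zfhx3, had 3977 CPM (31 cells) and 5532 CPM (142 cells). These values overlapped with those of the mature ones. Cajal-Retzius-like neurons, the early Reelin-producing cells of the marginal zone, had 8939 CPM in 4 cells and 4746 CPM in 13 cells, which overlapped with immature GABAergic-like neurons. The Cajal-Retzius-like value rested on few cells: pooled over aliquots it was 5804 CPM, and 3062 CPM without those with at least 100 Nnat UMIs in the Nanopore counts, an alternative added after the data were seen. The same alternative gave 4234 CPM in immature GABAergic-like neurons (5265 with all cells), beside 4018 CPM in mature ones. In immature glutamatergic-like neurons it gave 2119 CPM (2265 with all cells).

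Within the immature glutamatergic-like class its 2 clusters differed in Nnat. The cluster led by Tfap2d and Wnt7b had 2884 and 3042 CPM in the 190 and the 951 cell aliquot, and the cluster led by Hs6st2 had 1067 and 1222 CPM. The latter values lay near those of the mature glutamatergic-like clusters, which had 1089 and 972 CPM where Ndrg1 and Itpr1 led and 1414 and 1236 CPM where Crym and Nrp2 led. Nnat-202 made up 43.2% and 44.1% of the Nnat UMIs in the 2 immature clusters, with overlapping intervals (41.4 to 45.1 and 40.3 to 48.0). The mature name of the Crym and Nrp2 cluster was not stable. Its mean log2 fold was 0.99 for the mature and 0.68 for the immature glutamatergic list. At resolutions 0.5 and 1.2 a cluster led by these genes (72 and 69 cells) was named immature glutamatergic-like. The mature name of the Ndrg1 and Itpr1 cluster (142 cells) rested on 4 raised markers of the 10 listed. Its mean log2 fold was 0.09 for the mature and -0.32 for the immature glutamatergic list.

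**Figure D2:**
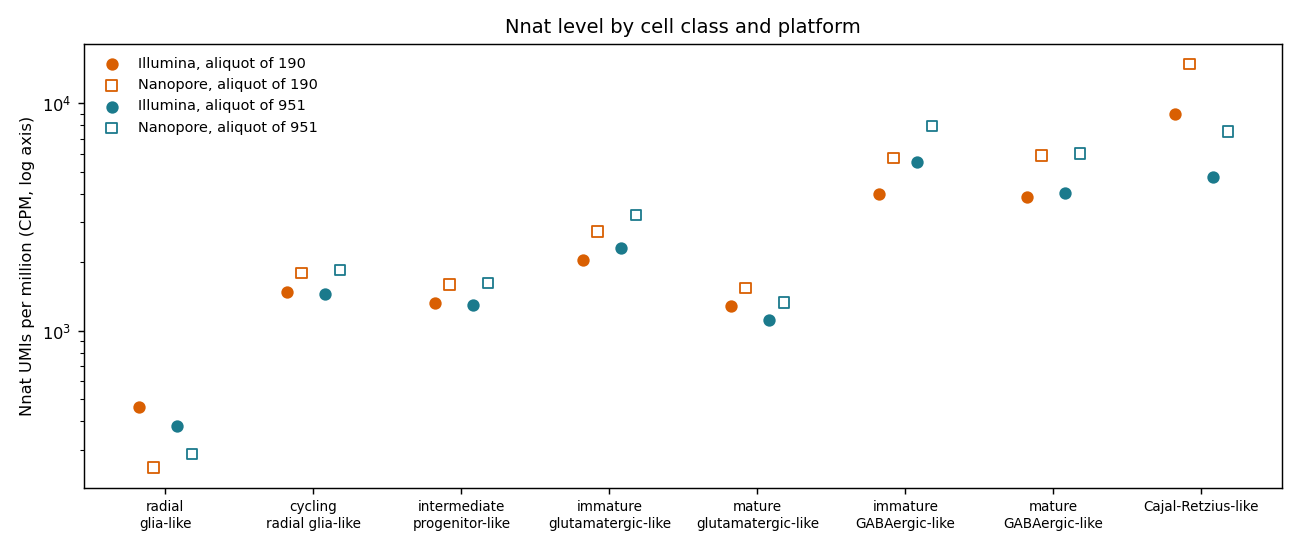
Nnat level in CPM (log axis) in each cell class, for Illumina (filled circles) and Nanopore (open squares) and for the 190 cell (orange) and the 951 cell (blue) aliquot, with 1 point per library. Nanopore lies above Illumina in every class but radial glia-like cells, where Illumina gave 460.4 and 382 CPM and Nanopore 250.2 and 287 CPM.

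Most single cells carried Nnat in every class. In the Illumina counts 67 of 72 radial glia-like cells had a Nnat UMI, 93.1% (exact 95% interval 84.5 to 97.7), at a median depth of 10677.0 UMIs, and in the GABAergic-like classes all 173 immature and all 144 mature cells had such a UMI. When all cells were reduced at random to 4000 UMIs, 105 of the 1121 cells were too shallow and left out, among them 2 of 72 radial glia-like, 14 mature glutamatergic-like, 25 immature GABAergic-like and 31 mature GABAergic-like cells. The share was then 77.1% in radial glia-like cells, 96.2% in mature glutamatergic-like neurons and all of the 148 immature and 113 mature GABAergic-like cells, with a mean of 2.01, 4.33, 20.5 (immature) and 16.0 (mature) Nnat UMIs per cell. As a reference for free RNA, 3 cells in the radial glia-like class had UMIs of at least 3 of 4 microglial markers. All 3, with a depth of 5661 to 13655 UMIs, had Nnat UMIs in the Illumina counts, 8 of 32409 UMIs or 247 CPM (exact Poisson interval 107 to 486), and they had 0 of 17977 UMIs in the Nanopore counts, which allows up to 167 CPM. The 69 radial glia-like cells without them had 400.2 CPM (363 to 441) in the Illumina counts, an interval that overlaps with that of the microglial cells. In the Nanopore counts they had 174 of 600812 UMIs or 289.6 CPM (248 to 336), above the limit for the microglial cells. The part of free RNA in the share of radial glia-like cells with a Nnat UMI was not tested further.

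The platforms were compared to ask whether the long reads counted Nnat as the short reads did. The Nanopore counts hold only UMIs matched to an annotated isoform. The matching is thus part of every platform difference given here and below, and its part was not tested. Nnat was higher in Nanopore, with 2670 and 3020 normalised CPM (190 and 951 cell aliquot) against 1900 and 1990 normalised CPM in Illumina. Both Nanopore libraries lay above both Illumina libraries. The log2 fold change was 0.55 (SE 0.09, 2 libraries per platform, adjusted p = 0.00433 with the quasi-likelihood F test of edgeR), beside a median of -0.04 over all 9855 genes tested. Of these genes 20.2% were called higher in Nanopore and 30.3% lower, and 19% had a higher log2 fold change than Nnat. Since both platforms read the same cells, the aliquot pairs the libraries, and with the aliquot as a block 3240 genes in place of 1986 were called higher in Nanopore. The p-values of this and the following tests rest on aliquots of 1 cell suspension from a single mouse, so they measure technical spread only. Blcap, the host of the intron that holds Nnat, had 115 and 408 UMIs in the Illumina and 75 and 323 UMIs in the Nanopore libraries, of which Blcap-202 made up 73 and 309. Its log2 fold change was 0.47 (SE 0.16, adjusted p = 0.0495 with edgeR), with 62.0 and 48.4 normalised CPM in Illumina and 78.7 and 72.5 normalised CPM in Nanopore.

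In UMIs, Nanopore gave 72.4% of the Illumina count of Nnat in the 190 cell aliquot and 80.2% in the 951 cell aliquot, where it gave 54.9% and 58.9% of the count of all genes. This share went with the level of Nnat in the cell. In cells with 1 to 4 Illumina Nnat UMIs it was 37.3% (21 cells) and 54.6% (115 cells), and in cells with 50 or more it was 81.2% (8 cells) and 87.2% (40 cells). Over all genes of the same cells it stayed between 53.7% and 55.3% in the 190 cell aliquot and between 57.9% and 59.5% in the 951 cell aliquot. Between classes it was 30.1% and 44.0% in radial glia-like cells, the class with the lowest level, and 64.5% to 86.3% in the other 7. In the 190 cell aliquot Cajal-Retzius-like cells had 79.6% and mature GABAergic-like cells 82.5%, against the order of their levels. Over all genes, however, these classes had 47.9% and 54.1%. Their log2 ratios of Nanopore to Illumina CPM of Nnat, 0.73 and 0.61, went with the level. In the 951 cell aliquot this ratio was 0.52 in immature and 0.57 in mature GABAergic-like cells, against the order of their levels. Radial glia-like cells were the class in which Nanopore gave the lower CPM in both aliquots, with 25 and 149 Nnat UMIs on this platform.

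**Figure D3:**
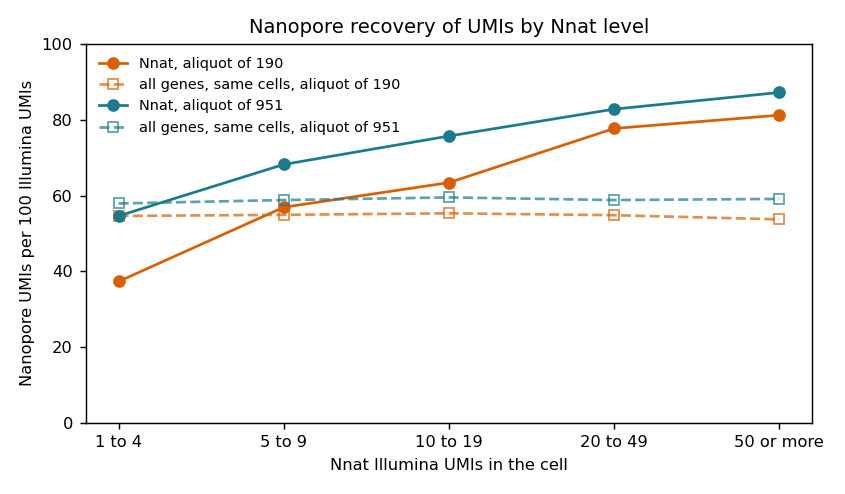
Nanopore UMIs per 100 Illumina UMIs, for Nnat (filled circles, solid lines) and for all genes of the same cells (open squares, dashed lines), in cells grouped by their Illumina Nnat UMIs, for the 190 cell (orange) and the 951 cell (blue) aliquot. The Nnat points go from 37.3 and 54.6 in the lowest group to 81.2 and 87.2 in the highest, while those of all genes stay between 53.7 and 59.5.

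Which isoform led differed between classes. Nnat-205 led in no progenitor class in either aliquot, with a tie in radial glia-like cells of the 190 cell aliquot. Neurons did not all have the same leader. Nnat-202, the form with the middle exon, had the larger share in cycling radial glia-like cells with 54.7% of 329 UMIs in the 190 cell aliquot and 47.4% of 1119 UMIs in the 951 cell aliquot, against 35.9% and 43.7% for Nnat-205, where the intervals of the 951 cell aliquot overlapped (44.4 to 50.3 and 40.8 to 46.7). It also led in intermediate progenitor-like cells with 66 of 120 UMIs and 49.7% of 576 UMIs. These 2 classes were in no comparison tested. Each leading isoform had 12 of the 25 UMIs from the radial glia-like class in the 190 cell aliquot, while Nnat-202 had 57.0% (48.7 to 65.1) of 149 UMIs in the 951 cell aliquot. Nnat-205 led in both aliquots in 3 classes. They were immature glutamatergic-like neurons, where Nnat-202 had 45.0% and 43.2%, mature glutamatergic-like neurons with 42.1% and 41.7%, and mature GABAergic-like neurons with 38.8% and 38.5%. In immature GABAergic-like neurons Nnat-202 led with 48.9% in the 190 cell aliquot and Nnat-205 with 49.9% in the 951 cell aliquot. The intervals of Nnat-202 and Nnat-205 overlapped there in the 190 cell aliquot (44.6 to 53.2 and 41.4 to 49.9). They also overlapped in immature glutamatergic-like neurons of that aliquot (40.4 to 49.7 and 44.7 to 54.0).

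**Figure D4:**
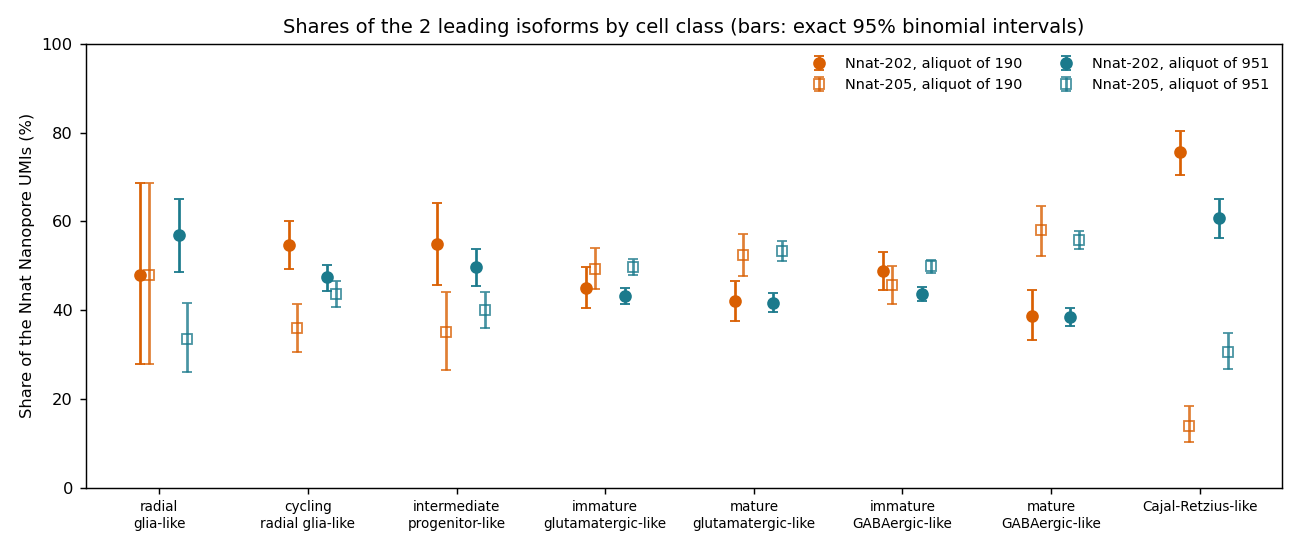
Share of the Nnat Nanopore UMIs that Nnat-202 (filled circles) and Nnat-205 (open squares) held in each cell class, in percent, for the 190 cell (orange) and the 951 cell (blue) aliquot, with exact 95% binomial intervals as bars. Nnat-202 ranges from 38.5% in mature GABAergic-like neurons to 75.7% in Cajal-Retzius-like neurons.

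Isoform usage was tested in 5 comparisons over sums per class and aliquot, with 6 Nnat isoforms and 640 genes in the fit. These sums hold the Nanopore counts on which the gene was chosen, and differences between classes can widen the spread between cells behind that choice. A p of Nnat that passes therefore gives no independent support for a difference between classes. Mature glutamatergic-like neurons had a Nnat-202 share of 41.8% against 55.7% in radial glia-like cells, a difference of -13.9 percentage points. The values of the aliquots did not overlap, with 42.1% and 41.7% against 48.0% and 57.0%. The 48.0%, however, was 12 of 25 UMIs in the 190 cell aliquot, and its interval (27.8 to 68.7) covered both neuron values. The cell with most Nnat UMIs held 10 of these 25 UMIs, and the share was 53.3% without it. Radial glia-like cells without the microglial ones had 289.6 CPM of Nnat in Nanopore, beside a limit of 167 CPM for the microglial cells. The part of free RNA in the isoform shares of radial glia-like cells was not tested. Without a block the difference did not pass the test (adjusted p = 0.206, diffSpliceDGE of edgeR), where 16.7% of all genes tested were called. With the aliquot as a block, which pairs classes of the same library, it passed (adjusted p = 0.0370, diffSpliceDGE), where 145 of 640 genes or 22.7% were called. In that fit no single isoform passed, and the log2 changes relative to the gene were -0.50 for Nnat-202 (adjusted p = 0.120), 0.50 for Nnat-205 (adjusted p = 0.181) and -2.06 for Nnat-207 (adjusted p = 0.181). The difference rested on the 149 UMIs of the radial glia-like cells of the 951 cell aliquot: without them it was -6.2 points (adjusted p = 0.928 without a block).

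Mature GABAergic-like neurons had a Nnat-202 share of 38.6% against 44.3% in immature ones, a difference of -5.7 points. The immature cluster was led by Ebf1, Isl1 and Zfhx3 and the mature one by Sst, Maf and Nxph1. A difference in maturation thus cannot be told apart here from one in the kind of GABAergic neuron. The values of the aliquots, 38.8% and 38.5% against 48.9% and 43.7%, did not overlap. The adjusted p was 0.434 without a block, where 0.938% of all genes were called, and 0.0278 with the aliquot as a block, where 14 of 640 genes or 2.19% were called (diffSpliceDGE). In the blocked fit Nnat-210, which keeps the first 27 bases of the middle exon, had the lowest p among the isoforms, with a relative log2 change of -1.33 (adjusted p = 0.0907). It had 22 of 2487 UMIs (0.885%) in mature and 94 of 4483 UMIs (2.10%) in immature GABAergic-like neurons. Without the immature GABAergic-like cells of the 951 cell aliquot the difference was -10.3 points, and without those of the 190 cell aliquot -5.1 points. The difference was smaller at clustering resolution 1.2, with -3.9 points (40.2% against 44.1%), and did not pass without a block. At that resolution 193 cells were named mature and 124 immature GABAergic-like, in place of 144 and 173.

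The other 3 comparisons did not pass the test in either fit. Immature GABAergic-like neurons against radial glia-like cells gave -11.4 points (44.3% against 55.7%), with adjusted p = 0.482 where 8.44% of all genes were called. Mature against immature glutamatergic-like neurons gave -1.6 points (41.8% against 43.4%), with adjusted p = 0.463 (-6.7 points at clustering resolution 0.5 and -6.3 at 1.2, which did not pass either) where 2.03% of all genes were called; with the block, where 38 of 640 genes (5.94%) were called, the adjusted p was 0.0569 with diffSpliceDGE. Mature GABAergic-like against mature glutamatergic-like neurons gave -3.2 points (38.6% against 41.8%), with adjusted p = 0.930 where 1.56% of all genes were called, and with the block 19 genes (2.97%) were called. A p that misses the threshold does not show that the classes use the isoforms alike.

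Cajal-Retzius-like neurons had the highest Nnat-202 share in the 190 cell aliquot, and in the 951 cell aliquot their interval overlapped with that of radial glia-like cells. The share was 75.7% (70.5 to 80.5) of 301 UMIs in the 190 cell aliquot and 60.8% (56.3 to 65.1) of 502 UMIs in the 951 cell aliquot, and Nnat-205 had 42 of 301 UMIs and 30.7% of 502 UMIs. With 4 cells in the 190 cell aliquot the class did not enter the test. A single cell held 60.8% of the Nnat UMIs of the class in the 190 cell aliquot, and 72.9% of the UMIs of the other 3 cells were Nnat-202. In the 951 cell aliquot the share was 55.7% without the cell with most UMIs, below the 57.0% of radial glia-like cells. The share of Nnat-208, which uses the middle exon without its last 5 bases, was 4.61% (37 of 803 UMIs, 3.26 to 6.30) in this class. It was between 1.29% and 2.87% in the other 7 classes. The interval of Cajal-Retzius-like cells overlapped with those of radial glia-like (1.72%, 0.357 to 4.96) and intermediate progenitor-like cells (2.87%). These shares of Nnat-208 are pooled over aliquots, and the 803 UMIs came from 17 cells.

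The minor isoforms had between 4.97% and 10.2% of the Nnat UMIs of a class. All isoforms other than Nnat-202 and Nnat-205 made up 8.62% of the Nnat UMIs in radial glia-like cells, 9.05% in cycling radial glia-like and 10.2% in intermediate progenitor-like cells. In neurons they made up 6.91% (immature glutamatergic-like), 4.97% (mature glutamatergic-like), 6.36% (immature GABAergic-like), 5.39% (mature GABAergic-like) and 9.22% (Cajal-Retzius-like). The exon of 88 bases, carried by Nnat-201, Nnat-207 and Nnat-209, was in 5.17% (2.39 to 9.59) of the Nnat UMIs of radial glia-like cells, 4.28% (3.30 to 5.46) of cycling radial glia-like cells, 4.60% (3.17 to 6.43) of intermediate progenitor-like cells and 4.07% (3.42 to 4.79) of immature glutamatergic-like neurons. It was in 2.29% (1.75 to 2.94) of those of mature glutamatergic-like neurons, 2.34% (1.92 to 2.83) of immature GABAergic-like neurons and in 54 of 2487 (1.64 to 2.82%) of mature GABAergic-like neurons, and in 2.12% (1.24 to 3.37) of those of Cajal-Retzius-like neurons. These values are pooled over aliquots. In the 190 cell aliquot intermediate progenitor-like cells (0.519 to 7.13%) and immature glutamatergic-like neurons (1.68 to 5.08%) overlapped with mature glutamatergic-like neurons (0.752 to 3.39%). In the 951 cell aliquot the former 2 (3.40 to 7.15% and 3.52 to 5.03%) lay above the mature neurons (1.80 to 3.16%). Nnat-207, which carries both this exon and the whole middle exon, had 1.76% (59 of 3343 UMIs) in immature and 0.776% (20 of 2576 UMIs) in mature glutamatergic-like neurons, with a relative log2 change of -1.25 that did not pass the isoform test (adjusted p = 0.601, diffSpliceDGE).

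Single cells held both forms. Of 550 cells with at least 10 Nnat UMIs in the Nanopore counts, 549 had UMIs of both Nnat-202 and Nnat-205, and in each of the 550 one of them led or tied for the lead. Nnat-205 was ahead in 309 of the 550 cells, 33 had equal counts, and Nnat-202 was ahead in the others. The mean share of the leading isoform of the cell was 59.0% (SD 9.91 over 550 cells), which by its construction lies above the pooled share of 48.6%. It was 60.7% (SD 10.1) in 93 cells of the 190 cell aliquot and 58.7% (SD 9.84) in 457 cells of the 951 cell aliquot. The Nnat-202 share of single cells had a mean of 43.6% and an SD of 15.2 percentage points, where counting error around the pooled share gives an SD of 11.9. It was at least 75% in 12 cells and at most 25% in 62 cells.

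The spread between cells is given by the number of Nnat UMIs, beside the SD of counting error. These are the counts the gene was chosen on, so an SD above counting error adds nothing to the choice. In 184 cells with 10 to 14 Nnat UMIs the SD of the Nnat-202 share was 17.5 points and the counting SD 14.5, and in cells with 15 to 24 UMIs they were 13.8 and 11.5. In 129 cells with 25 to 49 UMIs the values were 13.7 and 8.87 points, in 20 cells with 50 to 99 UMIs 13.2 and 6.23 points, and in 11 cells with at least 100 UMIs 16.5 and 4.04 points. The cells of the last group are few, and 4 of them were Cajal-Retzius-like. Within classes the SD was 12.9 points in 139 immature GABAergic-like cells (counting SD 11.2), 14.3 in 111 mature GABAergic-like cells (11.7), 15.2 in 106 immature glutamatergic-like cells (11.9) and 15.9 in 96 mature glutamatergic-like cells (12.6).

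The cells with most Nnat UMIs show the range. An immature GABAergic-like cell had 302 Nanopore Nnat UMIs with 53.3% Nnat-202 (exact 95% interval 47.5 to 59.0), while another of the same class and aliquot had 139 UMIs with 28.1% (20.8 to 36.3). Another immature GABAergic-like cell had 156 UMIs with 58.3% (50.2 to 66.2). An immature glutamatergic-like cell had 258 UMIs with 48.1% (41.8 to 54.3). The Cajal-Retzius-like cells with at least 100 UMIs had 77.6% of 183, 77.1% of 118, 66.4% of 116 and 51 of 102 UMIs. These are the cells with most UMIs among those the gene was chosen on, and the intervals cover counting error only. None of these 11 cells was called as a doublet.

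**Figure D5:**
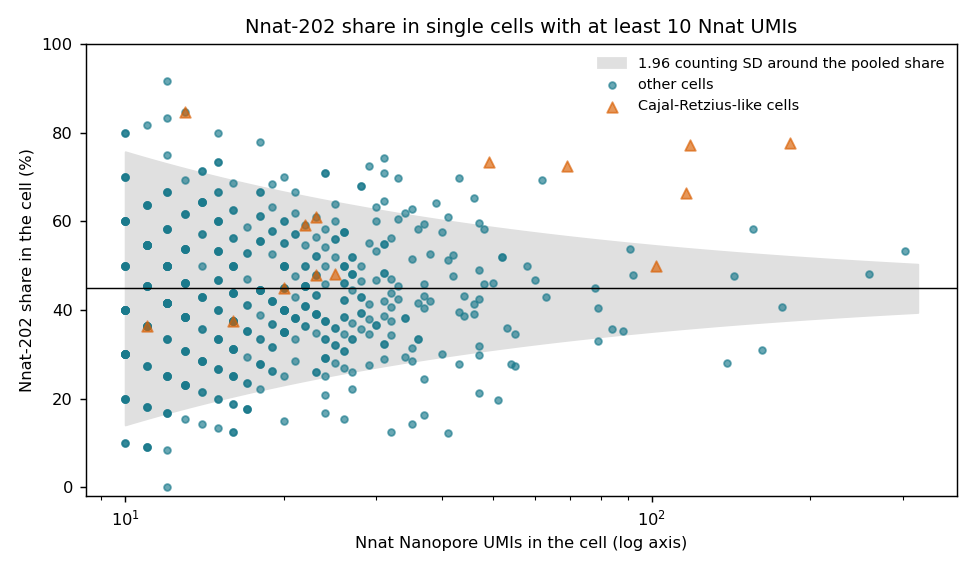
Nnat-202 share in percent against the Nnat Nanopore UMIs of the cell (log axis) in the 550 cells with at least 10 Nnat UMIs, with Cajal-Retzius-like cells as orange triangles and other cells as blue points. The line is the pooled share of these cells, 44.9%, and the grey band gives the 95% range of counting error around it. In the 11 cells with at least 100 UMIs the share ranges from 28.1% to 77.6%.

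The genes with a level most like that of Nnat were sought among 3010 genes with a mean of at least 50 CPM, by Pearson's r of log2(CPM + 10) over 14 sums of 7 classes and 2 aliquots of the Illumina counts, which share cells and libraries. The highest values were for H3f3a, which encodes histone H3.3 (r = 0.938), H2afy2, which encodes a macroH2A histone (r = 0.933), Hdgfrp3 (r = 0.932), Gramd1a (r = 0.929) and Tra2a, a splicing factor (r = 0.913). In each aliquot alone their r was between 0.901 and 0.987. The genes were picked on sums that hold both aliquots, so r in an aliquot alone gives no independent support for the likeness. H3f3a had 2019 and 1695 CPM in radial glia-like cells and 3995 and 3721 CPM in immature GABAergic-like neurons. The lowest values were for Cd9, a tetraspanin (r = -0.944), Tpi1, an enzyme of glycolysis (r = -0.940), and Slc1a3, a glutamate transporter of radial glia (r = -0.937). Slc1a3, which is also a marker of the radial glia list, had 533 and 624 CPM in radial glia-like cells and 17.5 and 8.48 CPM in immature GABAergic-like neurons.

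Of a list of 37 other imprinted genes 35 were in the Illumina matrix and 11 had a mean of at least 50 CPM. Over these 11 the median r with Nnat was 0.486, beside 0.0408 over all genes compared, with a range from -0.629 (Commd1) to 0.845 (Snrpn). None of the 35 had more UMIs than Nnat in the kept cells. Between platforms 25 genes of the list were tested, of which 6 were higher and 10 lower in Nanopore, beside 20.2% higher and 30.3% lower over all genes, with a median log2 fold change of -0.21. Ndn (0.73, adjusted p = 0.00237) and Gnas (0.57, adjusted p = 0.0176) were higher with edgeR, as Nnat was, while Snrpn was lower (-4.82, adjusted p = 4.8e-05). Snrpn had 471 and 2462 UMIs in Illumina and 8 and 45 in Nanopore, and its UMIs without a matching isoform were not analysed. For isoform usage 5 genes of the list entered the fit, where 16.7% of all genes were called in mature glutamatergic-like neurons and 8.44% in immature GABAergic-like neurons against radial glia-like cells. Gnas, which encodes the alpha subunit of the stimulatory G protein, differed between mature glutamatergic-like neurons and radial glia-like cells (adjusted p = 3.0e-11, diffSpliceDGE) and between immature GABAergic-like neurons and radial glia-like cells (adjusted p = 5.8e-05). H13, which encodes a signal peptide peptidase, differed in the former comparison (adjusted p = 1.6e-06), and Cdkn1c, Meg3 and Ube3a passed in none of the 5 without a block. With the aliquot as a block 22.7% of all genes were called for mature glutamatergic-like against radial glia-like cells. For immature GABAergic-like against radial glia-like cells it was 12.3%. In the blocked fit Meg3, a long noncoding RNA, also passed in both of these comparisons (adjusted p = 0.00525 and 0.0290, diffSpliceDGE). Gnas (adjusted p = 0.0111) and H13 (adjusted p = 0.0466, both diffSpliceDGE) passed in mature against immature GABAergic-like neurons, where 2.19% of all genes were called.

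Of 17 genes of the endoplasmic reticulum calcium store, all 17 were measured and 3 had a mean of at least 50 CPM, with a median r with Nnat of -0.467 (-0.559 to -0.395). Between platforms 10 were tested, of which Calr, a calcium-binding chaperone, was higher in Nanopore (log2 fold change 0.46, adjusted p = 0.0141 with edgeR) and 6 were lower, beside the same 20.2% and 30.3% over all genes. Among the latter were Atp2a2, the calcium pump that fills the store (-1.60, adjusted p = 0.00252), and Itpr1, a receptor that releases calcium from it (-3.94, adjusted p = 3.2e-04). The isoform fit held Hspa5 alone from this list, which passed in none of the 5 comparisons without a block. With the block Hspa5 passed in mature glutamatergic-like neurons against radial glia-like cells (adjusted p = 0.0251, diffSpliceDGE), where 22.7% of all genes were called.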

How the data were processed

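The authors deposited raw UMI counts. Illumina counts per gene were made by Cell Ranger v2.0.0 (mm10), and Nanopore counts per Gencode vM18 isoform and barcode from reads mapped with minimap2 v2.17, with barcodes and UMIs assigned under guidance of the Illumina data and a consensus sequence per UMI (Sicelore). A Nanopore UMI was counted where its exons matched an isoform, which lowers the count of a gene by its unmatched UMIs. Those UMIs were not analysed here. Gene symbol and isoform identifier were used to find Nnat. Annotation and sequences are from Gencode vM21 on GRCm38, which mm10 names.

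The gene, the lists and the comparisons were chosen with earlier results of these data known. Barcodes with fewer than 1400 genes were left out. Cells were clustered with Seurat 5.3.0 (2000 variable genes, 11 dimensions, resolution 0.8) and clusters were named by at least 3 raised markers from fixed lists. Counts were summed per library, or per class and aliquot where both aliquots had 5 or more cells of the class. Platforms were compared with edgeR 4.0.16 in R 4.3.3 (TMM, filterByExpr, robust quasi-likelihood F test) and isoform usage with diffSpliceDGE of edgeR, with Benjamini-Hochberg adjustment over all genes and a threshold of 0.05. limma 3.58.1 and DESeq2 1.42.0 served as alternatives. The relative change of an isoform is its log2 fold change less that of the gene.

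The aliquot number pairs the samples, since both platforms read the cDNA of the same cells and classes of an aliquot share its library. Deviations of the same aliquot on both platforms correlated with r = 0.597 over genes, and those of classes of the same aliquot with r between 0.0278 and 0.156 (median 0.0796, 21 class pairs). Named genes were Nnat with all isoforms, Blcap, both lists, and the 5 highest and 3 lowest r. Intervals are exact 95% binomial or Poisson intervals; a count of 0 was given a limit of 3 counts. Shares and r were computed in Python 3.11.15 (numpy 2.4.6, pandas 2.3.3, scipy 1.17.1). Doublets were called by the Scrublet method in scanpy 1.11.5.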

Additional observations from a re-analysis of the deposited data

Results flagged for a closer look

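In radial glia-like cells the Nanopore CPM of Nnat was below the Illumina CPM in both aliquots, with a log2 ratio of -0.88 in the 190 cell aliquot and -0.41 in the 951 cell aliquot, whereas in the other 7 classes it was above it in all 14 sums (0.26 to 0.73). This difference between classes was not tested, and it rests on 25 and 149 Nanopore Nnat UMIs.

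Barcodes with fewer than 1400 genes, which entered no comparison, also held Nnat. There were 14 Illumina UMIs in 4 such barcodes of the 190 cell aliquot and 103 Illumina and 65 Nanopore UMIs in 16 barcodes of the 951 cell aliquot, which is above the limit of 3 counts. These 20 barcodes had 598 CPM of Nnat and 162 to 1392 genes, and the 20 kept cells with the fewest genes (1405 to 1494) had 2586 CPM.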

How the results depend on the processing

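The platform difference of Nnat kept its direction and passed under all 9 alternatives, with a log2 fold change of 0.45 to 0.67 without each library in turn and 0.55 to 0.60 otherwise; genes called higher in Nanopore numbered 1986, 1166 with DESeq2 and 3240 with the replicate block. For isoform usage, mature glutamatergic-like against radial glia-like (-13.9 points, with and without the replicate block) passed with the block (adjusted p = 0.0370) and at resolution 0.5 (-13.7 points, adjusted p = 0.00185), where intermediate progenitor-like cells had no cluster of their own; mature against immature GABAergic-like (-5.7 points) passed with the block (adjusted p = 0.0278); and mature GABAergic-like against mature glutamatergic-like turned from -3.2 to 0.7 points at resolution 0.5 and to 2.0 at resolution 1.2. The block changed no other call of Nnat. The other 70 of 75 values kept direction and side of the threshold, though mature against immature glutamatergic-like went from -1.6 to -6.7 points at resolution 0.5 and -6.3 at resolution 1.2. Mature against immature GABAergic-like went from -5.7 to -3.9 points at resolution 1.2. Without each sum in turn the differences in the order of the report were -15.2 to -6.2, -10.3 to -5.1, -12.7 to -3.7, -3.2 to -1.3 and -3.5 to -3.0 points. The smallest of the differences from radial glia-like cells, -6.2 and -3.7, were those without the radial glia-like cells of the 951 cell aliquot. Genes called for isoform usage ranged from 42 to 194 (mature glutamatergic-like against radial glia-like, 107 in the report), 0 to 14 (mature against immature GABAergic-like, 6), 28 to 79 (immature GABAergic-like against radial glia-like, 54), 1 to 38 (mature against immature glutamatergic-like, 13) and 0 to 21 (mature GABAergic-like against mature glutamatergic-like, 10), with the fewest where a sum or the filter was left out. The counts of 0 (diffSpliceDGE of edgeR, 0 with no filter or without the mature GABAergic-like cells of the 951 cell aliquot) stood beside 124 and 60 genes at an unadjusted p under 0.05 for mature against immature GABAergic-like, and beside 66 for the last comparison; limma called 6 and 13 genes in these comparisons. The cause of these changes was not tested.

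The pooled share of Nnat-205, 48.6%, was 43.5% and 49.5% in the aliquots alone. The mean share of the leading isoform, 59.0%, was 60.9% with a minimum of 5 UMIs and 57.6% with 20, 60.7% and 58.7% in the aliquots, and 49.6% for Nnat-205 in every cell. The share of cells with a Nnat UMI, 98.4%, was 96.3% after thinning, 98.2% in all barcodes and 98.4% in each aliquot. After thinning, the Illumina CPM was 504 in radial glia-like cells (396 in the report), 1703 in the cycling ones (1459) and 1359.8 in intermediate progenitor-like cells (1298). As a mean over cells it was 1639.8 in the cycling and 1339 in the intermediate progenitor-like class. Clustering without Nnat gave 400.2 CPM in radial glia-like, 1463 in cycling radial glia-like and 1316 in intermediate progenitor-like cells. It gave 2267 in immature and 1142 in mature glutamatergic-like neurons. In GABAergic-like neurons it gave 5248 (immature) and 4047 (mature), and in Cajal-Retzius-like neurons 5789. Leaving out shared barcodes gave 1488 for cycling radial glia-like cells. By aliquot the CPM was 382 to 460.4 (radial glia-like), 1450.4 to 1487 (the cycling ones), 1293 to 1318 (intermediate progenitor-like), 2054 to 2308 (immature glutamatergic-like), 1113 to 1281 (mature glutamatergic-like), 3977 to 5532 (immature GABAergic-like), 3857 to 4043 (mature GABAergic-like) and 4746 to 8939 (Cajal-Retzius-like). Leaving out shared barcodes or cells with at least 100 Nnat UMIs, alternatives chosen after the data were seen, changed no call.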
